A study of Mus musculus with 9 samples.

Results

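The genes described here are those of interferon signalling, of the major histocompatibility complex (MHC) and of JAK-STAT signalling. They were chosen by mouse symbol alone, as every row whose symbol begins with H2-, Ifi, Ifn, Irf, Irgm, Oas, Gbp, Isg or Socs, or with Stat, Jak or Tap and a digit, together with Xaf1. This rule took 96 of the 14052 genes in the count table. RNA was sequenced from 5 kidney tumour areas (L4, R2, R3, R4 and R5) and from 4 areas of normal kidney cortex (L1, L2, R1 and R2), all from mice about 1 year old on a normal diet. The tumour areas came from mice with floxed Vhl and floxed Pbrm1 alleles and Ksp-Cre, on a mixed background of C57BL/6, BALB/c and 129. The Ksp promoter, that of the kidney cadherin gene Cdh16, drives Cre in tubule epithelium, so immune, vessel and stromal cells of these mice are not its targets. The normal areas came from wild-type C57BL/6 mice. Strain and genotype changed together, and their parts in any difference below cannot be told apart. The labels number all tumour areas alike and all normal areas alike, so each group may be 1 animal, and p-values then measure the spread between areas of a kidney.

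Interferons are cytokines that cells release when they sense foreign nucleic acid or when lymphocytes are activated. Their receptors carry JAK kinases, which phosphorylate STAT factors, and these enter the nucleus and switch on IRF factors, antiviral enzymes and MHC genes, while SOCS proteins damp the signal. Class I MHC molecules show peptides from inside the cell on nearly all cells, and class II molecules show peptides from engulfed material mainly on dendritic cells, macrophages and B cells. Kidney tubule cells can be induced by interferon gamma to make both.

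Most of the measured genes stood higher in the tumour areas. Of the 96 genes, 31 had no count in any library and 18 were below the filter on low counts. None of these can be read as silent, since the annotation and counting settings were not given. The remaining 47 were tested. At an adjusted p under 0.05 in edgeR's quasi-likelihood test, 42 stood higher in the tumour areas, 2 stood lower, and 3 did not pass. Among all 7020 tested genes 74.6% passed, 39.3% higher and 35.3% lower, so a large share of the whole table moved between these groups. At least 2-fold increases numbered 34 here, against 17.3% of all tested genes, and 1 gene fell at least 2-fold, against 12.6%. The median log2 fold change (tumour over normal) was 1.80 for the 47, beside 0.06 for all tested genes. The filter bears on these counts: 12 of the 47, among them Ifi202b, Gbp2b, Xaf1 and H2-Eb2, lay below its cutoff of 1.68 CPM (counts scaled to a common library total) in some or all normal areas and entered through the tumour areas. Of the 35 that passed the cutoff in all normal areas, 30 were higher, 2 lower and 3 not called, with a median of 1.45. In 41 of the 47 genes all tumour areas lay above all normal areas (34.8% of all tested genes), and in 2 all lay below (33% of all tested genes). Without tumour areas L4 and R5, which also held urothelial and fat transcripts, 41 genes were higher and 2 lower.

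Libraries held 5143527 to 8250261 counted reads, and 3 counts, the limit that a count of 0 allows for counting error, came to 0.409 to 0.648 CPM. CPM values carry edgeR's TMM scaling. The cutoff of 1.68 CPM does not: it was applied to counts divided by the library total alone, so printed CPM values cannot be set against it directly. A value after ± is an SD over the areas of a group beside a mean CPM, and a standard error of the edgeR fit beside a log2 fold change. The targeted genes stood at 59.9 ± 11.9 CPM in tumour areas and 103.9 ± 4.69 CPM in normal areas for Vhl, and at 136 ± 21.5 and 155 ± 10.1 CPM for Pbrm1, which did not pass (adjusted p = 0.142 in edgeR). Scaling by library size alone moved the median log2 fold change of all genes by 0.291 and the calls from 2760 higher and 2476 lower to 3732 higher and 1689 lower. All changes are relative to TMM scaling.

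**Figure D1:**
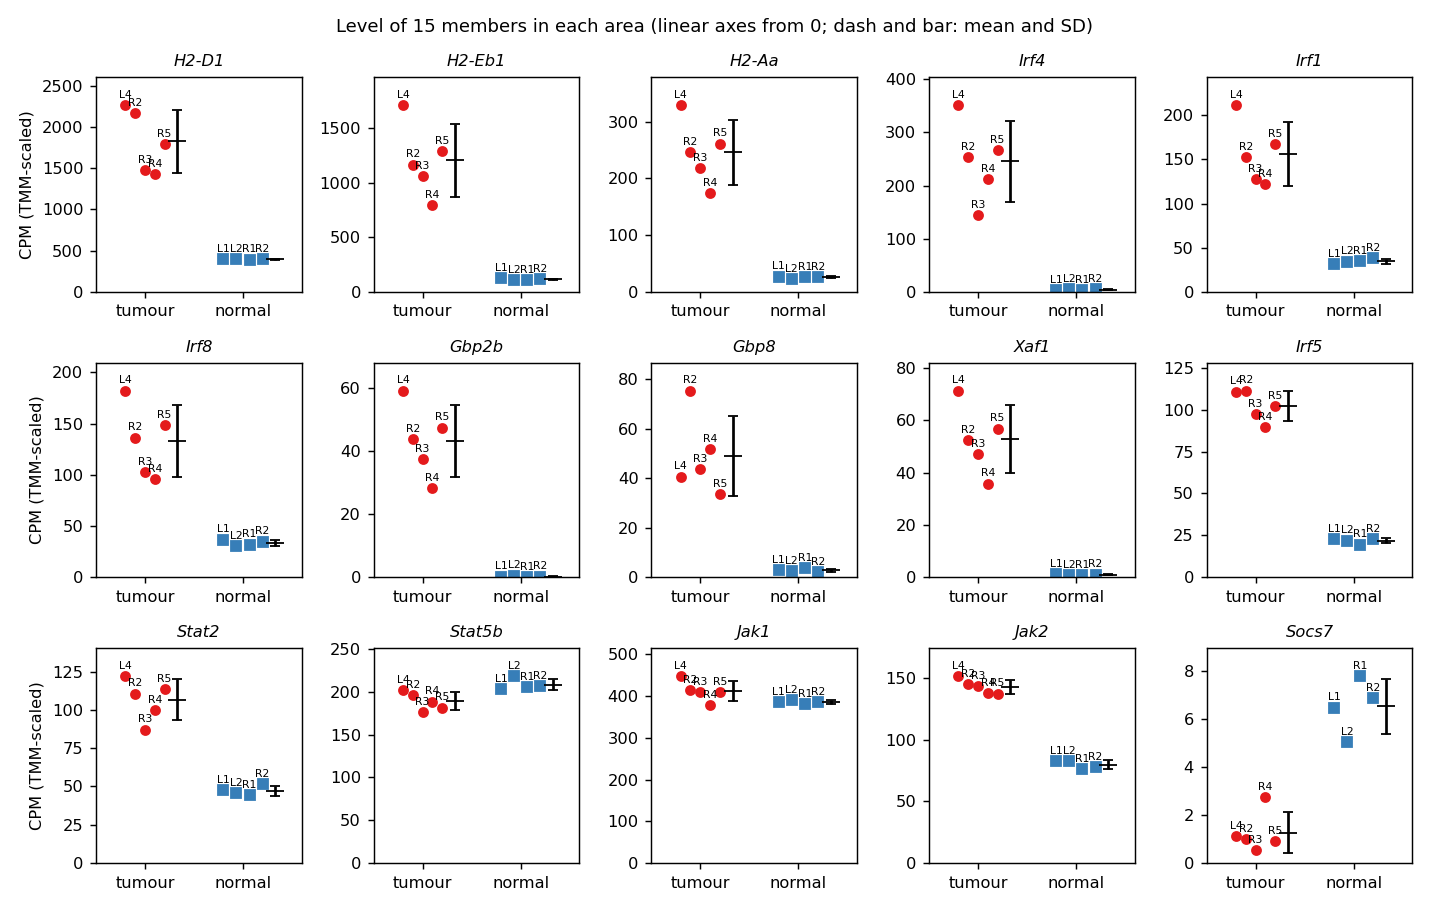
CPM (TMM-scaled, linear axes from 0) of 15 genes in each of the 5 tumour areas (circles, left) and 4 normal areas (squares, right), with the mean and SD of each group. H2-D1, H2-Eb1, Irf4, Gbp2b and Xaf1 were far above the normal areas in every tumour area, Jak1 overlapped, Stat5b lay slightly below, and Socs7 lay below.

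The interferon genes in the table, Ifng, Ifnk, Ifnl2 and Ifnl3, were at or near the detection limit. No interferon alpha gene and no Ifnb1 was found in the table by symbol, so these type I interferons cannot be read here. Ifng, the type II interferon of T and NK cells, held 16, 8, 5, 5 and 6 counts in tumour areas L4, R2, R3, R4 and R5, against 2, 1, 0 and 1 counts in normal areas L1, L2, R1 and R2, and was below the filter. Every tumour area thus held more Ifng reads than any normal area, at counts too low to test. The interferon lambda gene Ifnl3 held 2 counts in all, and Ifnk and Ifnl2 held none. Among receptor chains, Ifngr1 (ENSMUSG00000020009), the ligand-binding chain of the interferon gamma receptor, stood at 268, 190, 182, 158 and 205 CPM in the tumour areas, against 148, 141, 140 and 134 CPM in the normal areas. The groups did not overlap, and L4 was the highest. Its log2 fold change was 0.51 ± 0.13 (adjusted p = 0.00458 in edgeR). Ifnar2, a chain of the type I interferon receptor, rose by 1.13 ± 0.31 (adjusted p = 0.00665 in edgeR), although tumour R3 at 3.81 CPM lay below normal L2 at 4.09 CPM. Ifngr2, the second chain of the gamma receptor, held no count in any library.

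The JAK kinases did not move alike. Jak2 (ENSMUSG00000024789), which serves the interferon gamma receptor, stood at 152, 145, 144, 138 and 138 CPM in the tumour areas, against 83.0, 82.5, 76.0 and 78.1 CPM in the normal areas. That is a narrow spread in both groups with no overlap, and the log2 fold change was 0.84 ± 0.05 (adjusted p = 3.2e-07 in edgeR). Jak1, which serves both interferon receptors and many cytokine receptors, averaged 412 ± 24.6 CPM in tumour areas and 386 ± 3.99 CPM in normal areas. The groups overlapped, since tumour R4 at 378 CPM lay below all normal areas, and the difference of 0.09 ± 0.05 did not pass (adjusted p = 0.139 in edgeR). It passed with upper quartile factors (0.16), with library size alone (0.39) and without tumour area R4 (0.12). Jak3, the partner of the common gamma chain of lymphocyte cytokine receptors, held no count in any library.

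The STAT factors given here did not move alike. Stat2 (ENSMUSG00000040033), part of the complex that reads type I interferon, stood at 122, 111, 87.2, 99.9 and 114 CPM in the tumour areas, against 47.8, 45.5, 44.1 and 51.6 CPM in the normal areas. All tumour areas were higher, by 1.18 ± 0.10 on the log2 scale (adjusted p = 2.41e-06 in edgeR). Stat5b, a factor of growth hormone and interleukin 2 signalling, averaged 189 ± 10.5 CPM in tumour areas and 208 ± 6.73 CPM in normal areas (-0.14 ± 0.05, adjusted p = 0.0315 in edgeR). The groups were apart by little, at 202 CPM in the highest tumour area and 203 CPM in the lowest normal area. The call was lost in 7 of 18 alternatives, and with library size alone Stat5b read 0.15 higher without passing. Stat3, the factor of the interleukin 6 family, held no count in any library.

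The 5 tested IRF factors given here all rose. Irf4 (ENSMUSG00000021356), a factor of plasma cells and activated lymphocytes, stood at 351, 254, 145, 212 and 267 CPM in the tumour areas, against 3.24, 5.45, 2.82 and 4.65 CPM in the normal areas. Its lowest tumour value was many times its highest normal value, and the log2 fold change was 5.89 ± 0.32 (adjusted p = 1.64e-07 in edgeR). Irf5, a factor of macrophages and B cells, rose by 2.23 ± 0.09, to 102 ± 9.17 CPM in tumour areas against 21.8 ± 1.51 CPM in normal areas. Irf1 (ENSMUSG00000018899), an early target of interferon gamma, stood at 212, 152, 128, 122 and 168 CPM in the tumour areas, against 31.3, 34.3, 34.3 and 37.8 CPM in the normal areas. The groups were well apart, with L4 and R5 highest (2.18 ± 0.16, adjusted p = 1.02e-06 in edgeR). Irf8, which directs macrophage, dendritic and B cell development, rose by 1.99 ± 0.19, and Irf2, a repressor and partner of Irf1, by 0.79 ± 0.07.

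Irf3, the factor behind nucleic acid sensors, held 32 counts in the tumour areas together and 21 in the normal areas together. Irf7, the amplifier of type I interferon, held 2 counts, both in 1 normal area, and Irf9, a partner of Stat2, held none.

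Socs7 (ENSMUSG00000038485), of the family whose members bind JAKs, receptors and other signalling proteins, was the only gene that fell at least 2-fold. It stood at 1.11, 1.01, 0.544, 2.76 and 0.912 CPM in the tumour areas, against 6.48, 5.04, 7.80 and 6.87 CPM in the normal areas. All tumour areas were below all normal areas, R4 the least so, and Socs7 fell by 2.32 ± 0.35 on the log2 scale (adjusted p = 0.000146 in edgeR). In every alternative its log2 fold change lay between -2.82 and -2.03. Socs2, the feedback inhibitor of growth hormone signalling, held no count in any library.

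Class I MHC was represented by few counted genes. H2-D1 (ENSMUSG00000073411), a classical class I heavy chain, stood at 2266, 2171, 1477, 1431 and 1796 CPM in the tumour areas, against 394, 401, 390 and 393 CPM in the normal areas. The normal areas were nearly equal, all tumour areas lay far above them, and the log2 fold change was 2.21 ± 0.15 (adjusted p = 5.41e-07 in edgeR). H2-T24, a nonclassical class I gene, rose by 1.45 ± 0.18, to 23.7 ± 5.56 CPM in tumour areas against 8.63 ± 0.879 CPM in normal areas. The other classical heavy chain, H2-K1, held no count in any library, nor did H2-Q4, H2-Q7, H2-Q10, H2-T22, H2-T23, 7 H2-M genes and the peptide transporter genes Tap1 and Tap2. Of the 50-base stretches of H2-D1, 12.8% occur in other genes, most often in H2-K1, and how reads of the strains' different H2 alleles were counted was not tested. H2-M10.1, a member of the M region, held 8, 15, 1, 7 and 9 counts in the tumour areas and none in the normal areas, at least 9.52-fold higher when the normal areas together are set at the limit of 3 counts. H2-M9, H2-Q2 and H2-M10.5 held 8, 3 and 7 counts in all.

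Class II MHC was tested through 6 genes, all called higher. Of these H2-Aa, H2-DMa and H2-Eb1 passed the cutoff on low counts in all normal areas, while H2-DMb1, H2-Eb2 and H2-Ob passed it in none and entered through the tumour areas only. H2-Eb1 (ENSMUSG00000060586), the beta chain of the E molecule, stood at 1714, 1168, 1062, 798 and 1291 CPM in the tumour areas, against 122, 110, 109 and 119 CPM in the normal areas. H2-Aa (ENSMUSG00000036594), the alpha chain of the A molecule, stood at 330, 246, 219, 174 and 262 CPM in the tumour areas, against 26.8, 23.0, 26.5 and 26.3 CPM in the normal areas. Both shared the order L4, R5, R2, R3, R4 from high to low. Their log2 fold changes were 3.39 ± 0.20 and 3.26 ± 0.18 (adjusted p = 2.85e-07 and 1.79e-07 in edgeR). H2-DMa and H2-DMb1, whose proteins load peptides onto class II, rose by 3.47 ± 0.17 and 2.88 ± 0.40. H2-Ob, a subunit of the B cell protein that tempers this loading, rose by 2.69 ± 0.29. H2-Eb2, a further beta chain gene, held 367, 184, 92, 168 and 237 counts in the tumour areas, against 4, 1, 2 and 2 counts in the normal areas, and rose by 6.26 ± 0.50 (adjusted p = 1.56e-06 in edgeR). H2-Ab1, the partner chain of H2-Aa, held 2 counts in all and H2-DMb2 none, so the A molecule was seen through its alpha chain only.

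Class II RNA in bulk tissue follows both the number of cells that make it and the amount each makes, and these cannot be told apart here. Markers of leukocytes moved with it. All 5 tested pan-leukocyte markers, of 6 in the table, rose, and their summed level was 437 to 950 CPM in tumour areas and 52.9 to 56.9 CPM in normal areas. Of these, Coro1a, Vav1 and Itgb2 lay below the cutoff on low counts in some or all normal areas and entered through the tumour areas. Ptprc, the defining leukocyte antigen CD45, held no count in any library. The summed class II level was 1063 to 2198 CPM in tumour areas and 141 to 158 CPM in normal areas. Divided by the leukocyte sum of the same area it was 2.31 to 2.74 in tumour areas and 2.55 to 2.99 in normal areas, and the groups overlapped. The same quotient for class I genes was 2.42 to 3.51 in tumour areas and 7.01 to 7.60 in normal areas, and for GBP genes 0.668 to 1.04 and 2.53 to 3.05. In the other 10 groups the quotient was lower in all tumour areas, which holds for any group that rose less than the leukocyte sum. Both sums rest on few genes. In L4, Laptm5 and Cd53 held 607 and 310 of the 950 CPM of the leukocyte sum. H2-Eb1 held 1714 of the 2198 CPM of the class II sum there. This quotient was chosen after the values were seen, and the part of leukocyte content in these differences was not tested.

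**Figure D2:**
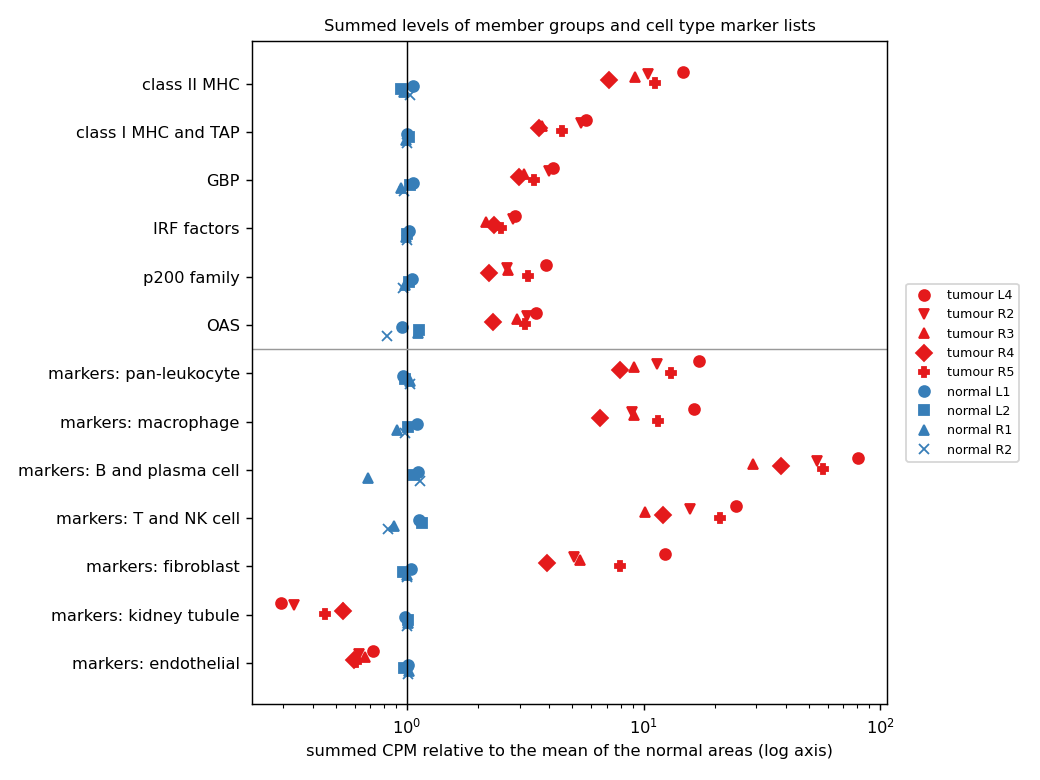
Summed CPM of 6 gene groups (top) and of 7 cell type marker lists (bottom) in each area, divided by the mean of the normal areas (log axis; red, tumour; blue, normal). Class II MHC in tumour areas lies in the range of the pan-leukocyte and macrophage markers and has tumour area L4 highest and R4 lowest, as they do. The class I MHC, GBP, OAS and p200 groups and the fibroblast and endothelial markers also have L4 highest and R4 lowest. This order is therefore not particular to class II MHC or to leukocyte markers.

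Other marker lists are given for comparison. Macrophage markers rose in 4 of 6 tested genes (summed 766 to 1919 CPM in tumour areas and 106 to 129.7 CPM in normal areas), with Csf1r and Mertk not called. B and plasma cell markers rose in 7 of 7 (437 to 1212 and 10.3 to 17.0 CPM). T and NK cell markers rose in 5 of 5 (111 to 268 and 9.10 to 12.7 CPM, with Lck, Zap70, Cd2 and Ncr1 at 0 everywhere). Dendritic cell markers rose in 4 of 5 (194 to 392 and 69.7 to 81.3 CPM), with Zbtb46 not called. Zbtb46 averaged 37.96 CPM in tumour areas and 42.7 CPM in normal areas (-0.17 ± 0.13, adjusted p = 0.248 in edgeR). Bst2, among the dendritic cell markers that rose, is also counted with the interferon response genes below. Of 10 neutrophil markers 6 were in the table, and none was tested. The sum of these 6 stayed under 2 CPM in every area. S100a8, S100a9, Ly6g and Cxcr2 were not in the table, so neutrophil content cannot be read from this sum. Fibroblast markers rose in 5 and fell in 2 of 7, endothelial markers rose in 1 and fell in 5 of 7, and kidney tubule markers fell in 7 of 10 with none higher, at 9461 to 17256 CPM in tumour areas and 31584 to 32581 CPM in normal areas. Urothelial markers summed to 1097 CPM in L4 and 197 CPM in R5, and to 16.7 to 61.7 CPM in the other tumour areas. Of the higher leukocyte and fibroblast markers, Blk, Cd79b, Ms4a1, Pax5, Cd3d, Cd8b1, Nkg7, Bst2 and Postn entered the test through the tumour areas. They lay below the cutoff on low counts in some or all normal areas. The part of the cell types of these lists in the results was not tested.

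The guanylate-binding proteins (GBPs), large GTPases that interferon gamma induces and that attack the membranes of intracellular pathogens, rose in 8 of 9 tested genes, of which Gbp2b passed the cutoff on low counts in no normal area and Gbp10 in 3. Gbp2b (ENSMUSG00000040264) stood at 59.1, 43.7, 37.4, 28.3 and 47.4 CPM in the tumour areas, against 0.216, 0.545, 0 and 0.202 CPM in the normal areas, where it held 6 reads in all. Tumour and normal areas were far apart, and the log2 fold change of 7.27 ± 0.42 (adjusted p = 2.16e-07 in edgeR) became 8.17 without normal area L2. Gbp8 stood at 40.6, 75.3, 43.5, 51.8 and 33.6 CPM in the tumour areas, against 2.81, 2.59, 3.82 and 2.22 CPM in the normal areas. It was highest in R2 and lowest in R5, unlike most of its family, and rose by 4.08 ± 0.29 (adjusted p = 6.78e-07 in edgeR). Gbp4 rose by 2.11 ± 0.17, Gbp10 by 2.16 ± 0.36, Gbp2 by 1.85 ± 0.22, Gbp3 by 1.73 ± 0.20, Gbp5 by 1.53 ± 0.20 and Gbp7 by 1.45 ± 0.08. Gbp9 overlapped, at 15.5 ± 2.82 CPM in tumour areas and 13.3 ± 0.762 CPM in normal areas (0.23 ± 0.15, adjusted p = 0.185 in edgeR), but passed when library size alone was used (0.52) or tumour area R3 was left out (0.34). In the reference annotation the genes form 2 neighbourhoods, Gbp5, Gbp7, Gbp3, Gbp2b and Gbp2, of which 5 of 5 rose, and Gbp8, Gbp9, Gbp4, Gbp10 and Gbp6, of which 3 of 4 tested rose. Gbp10 shares 84.1% of its 50-base stretches with other genes, most with Gbp6, which held no count. A single 50-base read within a shared stretch does not tell these genes apart. Whether the other end of the read pair does so was not tested.

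Oligoadenylate synthetases (OAS), which sense double-stranded RNA and switch on RNase L, were tested through Oas1a, Oas1c and Oas3, all called higher. Oas1c passed the cutoff on low counts in all normal areas, while Oas1a passed it in none and Oas3 in 1, so that both entered through the tumour areas. Oas1a held 36, 20, 14, 15 and 24 counts in the tumour areas, against 1, 2, 1 and 2 counts in the normal areas (3.58 ± 0.41, adjusted p = 1.87e-05 in edgeR), and shares 57.6% of its 50-base stretches with other genes, most with Oas1g. Oas3 held 83, 79, 47, 48 and 79 counts in the tumour areas, against 5, 16, 11 and 7 counts in the normal areas, with no overlap (2.63 ± 0.27). Oas1c rose by 0.92 ± 0.14. Oas2 held 16 counts in the tumour areas and 3 in the normal areas, a ratio of 3.81 with a 95% counting interval of 1.09 to 20.4. Oas1d, Oas1f, Oas1h, Oasl1 and Oasl2 held no count, Oas1e held 1 and Oas1g 5.

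The p200 genes encode nuclear and cytosolic DNA-binding proteins, and 5 of 6 tested rose, of which Ifi202b and Ifi211 passed the cutoff on low counts in no normal area. Ifi202b (ENSMUSG00000026535), known to differ in expression between mouse strains, held 91, 58, 55, 50 and 71 counts in the tumour areas and none in the normal areas, at least 77.3-fold higher when the normal areas together are set at the limit of 3 counts. No stretch of 50 bases in it occurs in another annotated gene, and every tumour area held reads. Ifi203 stood at 93.3, 65.2, 61.7, 56.1 and 73.7 CPM in the tumour areas, against 27.4, 27.5, 27.9 and 25.7 CPM in the normal areas (1.37 ± 0.14, adjusted p = 9.83e-06 in edgeR). Ifi204 rose by 1.80 ± 0.21, Ifi207 by 1.45 ± 0.24 and Ifi211 by 2.91 ± 0.46, the last with 72.8% of its 50-base stretches shared, most with Mndal. Ifi209 stood at 5.34 ± 1.94 CPM in tumour areas and 3.59 ± 0.618 CPM in normal areas and did not pass (0.59 ± 0.27, adjusted p = 0.0736 in edgeR), although it passed without tumour area R2 (0.70), without R4 (0.70) and with library size alone (0.89). Ifi208, below the filter, held 61 counts in the tumour areas and 7 in the normal areas, and Ifi214 held 27 and 1, a ratio of 19.3 with a 95% counting interval of 3.18 to 789. Ifi205 held 13 and 8 counts, and Ifi213 held none in the tumour areas and 2 in the normal areas.

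The remaining genes were taken by symbol and have unlike roles, and 7 of them were tested and called higher, of which Xaf1 passed the cutoff on low counts in no normal area and Ifi35 in 1. Xaf1 (ENSMUSG00000040483), whose protein binds the apoptosis inhibitor XIAP, stood at 71.3, 52.5, 47.1, 35.8 and 56.8 CPM in the tumour areas, against 1.30, 0.954, 0.995 and 1.01 CPM in the normal areas. Its tumour areas again ran L4, R5, R2, R3, R4 from high to low (5.63 ± 0.26, adjusted p = 6.74e-08 in edgeR). Ifi27l2a stood at 119.6, 32.7, 31.6, 22.9 and 57.5 CPM in the tumour areas, against 3.46, 7.22, 4.81 and 4.25 CPM in the normal areas. L4 alone was over 2 times the next area, and the log2 fold change of 3.38 ± 0.54 (adjusted p = 0.000225 in edgeR) became 2.51 without L4 and R5. Ifi30, the lysosomal thiol reductase that prepares antigens for class II, rose by 1.72 ± 0.10, to 228 ± 29.0 CPM in tumour areas against 69.2 ± 3.15 CPM in normal areas. Ifi35 rose by 1.11 ± 0.35, Ifi44 by 0.84 ± 0.09 and Ifih1, the RNA sensor MDA5, by 0.67 ± 0.13. Isg20l2, a ribosomal RNA exonuclease related to Isg20, rose by 0.25 ± 0.08 (adjusted p = 0.0136 in edgeR), and lost the call without normal area R1 (adjusted p = 0.0524). Ifi27l2b held 11 counts, Isg20 held 1, and Ifi27 none. H2-Ke6, a steroid dehydrogenase gene named after its place in the MHC, held none either.

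**Figure D3:**
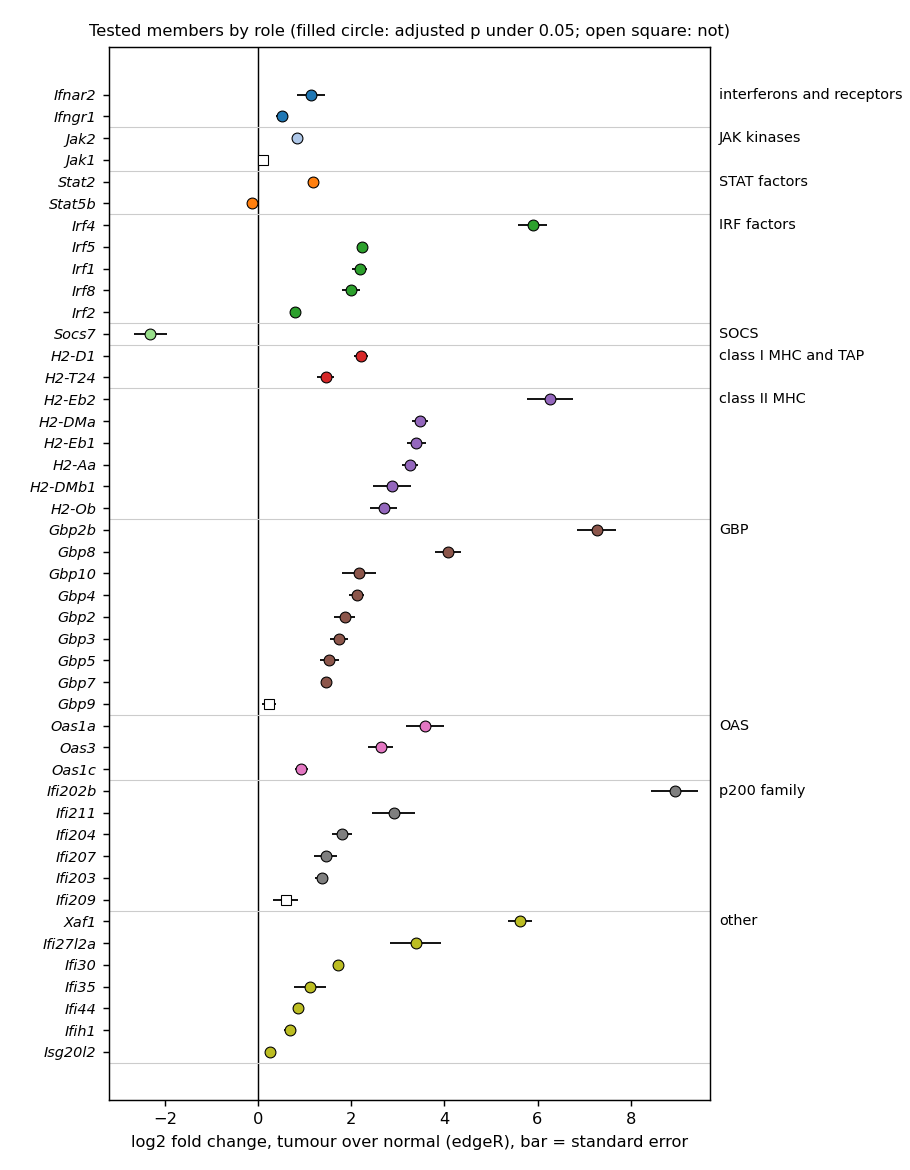
Log2 fold change (tumour over normal, edgeR) of 45 of the 47 tested genes by role, with bars of 1 standard error. Filled circles passed at an adjusted p under 0.05 and open squares (Jak1, Gbp9 and Ifi209) did not; Socs7 at -2.32 and Stat5b at -0.14 are the only ones below 0.

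Promoter sequences are shown for the GBP, OAS and p200 genes, whose tested members mostly rose. RefSeq windows on GRCm38.p6, from 250 bases before to 50 after a gene's start, were given for 37 of the 47 tested genes (43 windows). The letters GAAA, any 2 bases and GAAA again, the core of the interferon-stimulated response element (ISRE) that IRF factors bind, were searched on both strands. They occurred in 14 of these 43 windows (32.6%), against 1131 of all 32851 mouse windows (3.44%) and 2.83% of windows of tested genes. By group, the letters stood in 5 of 6 GBP windows, 3 of 3 OAS windows and 3 of 6 p200 windows, and in none of 7 class II windows. No window was given for the tested genes Gbp4, Gbp8, Gbp9, Gbp10 and Ifi204. The letters TTCNNNGAA, the gamma-activated site of STAT dimers, stood in 9 of the 43 windows (20.9%) against 8.3% of all windows, and 4 windows held both motifs, which may overlap. These are matches of letters and not measured binding. The first match in each gene of the families that rose is shown in capitals with 10 bases on each side, 5′ to 3′ on the gene's strand, so that its form in neighbouring genes can be compared.
Gbp2b (window chr3:142594597-142594896, plus strand): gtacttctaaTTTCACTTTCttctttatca
Gbp2 (window chr3:142620413-142620712, plus strand): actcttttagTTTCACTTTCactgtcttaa
Gbp3 (window chr3:142559794-142560093, plus strand): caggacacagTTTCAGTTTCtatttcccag
Gbp5 (window chr3:142496684-142496983, plus strand): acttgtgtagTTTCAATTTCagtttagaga
Gbp7 (window chr3:142530086-142530385, plus strand): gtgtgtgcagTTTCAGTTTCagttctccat
Oas1a (window chr5:120907476-120907775, minus strand): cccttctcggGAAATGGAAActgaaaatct
Oas1c (window chr5:120812465-120812764, minus strand): gaaatgggacTTTCAGTTTCcatttcccgg
Oas3 (window chr5:120777610-120777909, minus strand): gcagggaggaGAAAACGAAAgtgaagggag
Ifi203 (window chr1:173942443-173942742, minus strand): aagagctgggGAAATCGAAAgctatgaaca
Ifi207 (window chr1:173741760-173742059, minus strand): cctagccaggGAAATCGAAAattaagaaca
Ifi211 (window chr1:173912997-173913296, minus strand): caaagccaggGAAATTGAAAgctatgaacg

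All 5 GBP matches read TTTC and TTTC on the gene's strand, and all 3 p200 matches read GAAA and GAAA. The match began 137, 59, 45, 165 and 53 bases before the start in Gbp2b, Gbp2, Gbp3, Gbp5 and Gbp7, and 35, 41 and 37 bases before it in Ifi203, Ifi207 and Ifi211. The whole window of Oas1a (chr5:120907476-120907775, minus strand), shown because it holds 2 overlapping matches close to the start, reads as follows with the matches in capitals.
Oas1a: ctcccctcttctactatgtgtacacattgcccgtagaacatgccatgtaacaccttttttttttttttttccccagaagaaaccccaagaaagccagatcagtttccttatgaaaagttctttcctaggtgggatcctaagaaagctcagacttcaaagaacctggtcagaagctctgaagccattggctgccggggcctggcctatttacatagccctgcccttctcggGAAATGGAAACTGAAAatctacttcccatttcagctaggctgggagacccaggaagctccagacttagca

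Class II promoters carry another known element, the Y box bound by NF-Y, which works with the coactivator CIITA. Its letters CTGATTGG, searched on both strands after the values were seen, stood in 3 of 7 class II windows (H2-Eb1, H2-Eb2 and H2-Aa) in the H2-D1 window and in that of Irf8, outside the MHC, against 4.1% of all windows. The H2-Eb1 window (chr17:34305617-34305916, plus strand), shown for contrast with Oas1a, holds these letters, in capitals, from 62 bases before the start and no ISRE core.
H2-Eb1: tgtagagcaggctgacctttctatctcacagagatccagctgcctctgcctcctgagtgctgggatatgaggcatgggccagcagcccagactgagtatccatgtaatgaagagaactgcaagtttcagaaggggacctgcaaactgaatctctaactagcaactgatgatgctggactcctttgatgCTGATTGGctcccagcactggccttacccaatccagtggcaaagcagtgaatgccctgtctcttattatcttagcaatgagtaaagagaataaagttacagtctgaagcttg

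The order of the tumour areas differed between genes. Of the 42 genes that were higher, 29 were highest in L4, 10 in R2, 2 in R5, 1 in R3 and none in R4, and 25 were lowest in R4 and 13 in R3. In 23 of the 42 the highest pair was L4 and R5. The pan-leukocyte sum ran L4, R5, R2, R3, R4 from high to low, and 10 of the 42 genes (H2-Aa, H2-Eb1, Gbp2b, Ifngr1, Irf1, Irf8, Oas1a, Ifi27l2a, Xaf1 and Ifi203) had exactly this order. The sums of the urothelial and of the dendritic cell markers ran in this order too, so it was not particular to the pan-leukocyte markers. Gbp8 was 1 of 2 with neither L4 nor R5 in the highest pair. These orders are descriptions of 5 areas that may share an animal, and their shares among all tested genes were not counted.

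**Figure D4:**
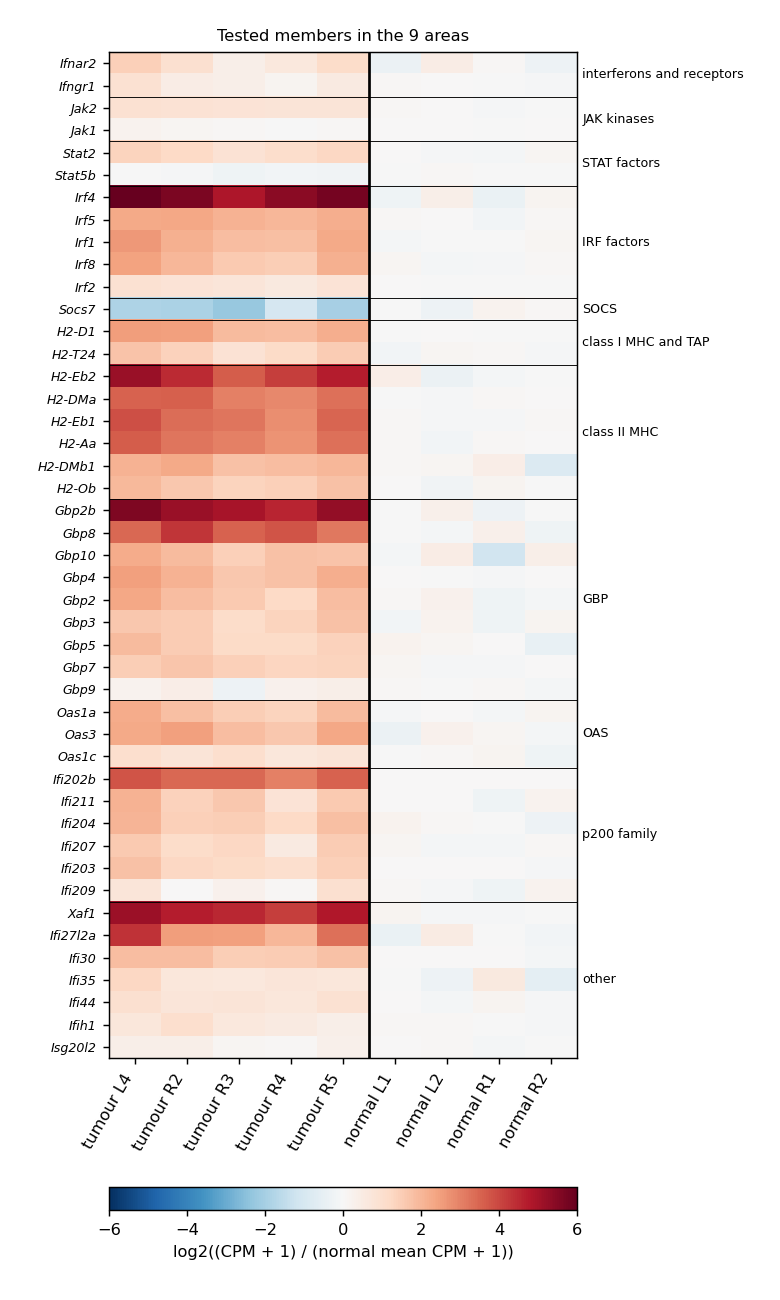
Level of 45 of the 47 tested genes in the 5 tumour areas (left) and 4 normal areas (right), as log2 of CPM plus 1 relative to the normal mean plus 1. The normal areas are close to 0 in most genes, and L4 and R5 are the deepest red columns for H2-Eb1, H2-Aa, H2-Eb2, Xaf1 and Ifi27l2a, while Gbp8 is deepest in R2.

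Genes of the same pathways that the symbol rule does not take were read from a fixed list, chosen with earlier results of these data known. Of its 110 genes 78 were in the table and 50 were tested. Of these 40 were higher and 6 lower, with a median log2 fold change of 1.14. Among all tested genes 39.3% were higher and 35.3% lower. Ciita, Bst2, Dhx58 and Pml lay below the cutoff on low counts in some or all normal areas and entered through the tumour areas. In antigen presentation 9 of 11 rose: Ctss, the protease that trims the class II invariant chain, by 3.32 ± 0.26, Ciita, the class II coactivator, by 2.40 ± 0.36, the immunoproteasome gene Psmb10 by 2.27 ± 0.23 and the invariant chain Cd74 by 2.23 ± 0.15. Ciita averaged 1.92 ± 0.562 CPM in tumour areas and 0.348 ± 0.127 CPM in normal areas. Rfxank, a subunit of the factor on class II promoters, fell by 0.47 (adjusted p = 0.000159 in edgeR), and with library size alone stood at -0.18 without passing (adjusted p = 0.0756). B2m, the light chain of class I, held 23 counts in all, and Psmb8, Psmb9, Psme1 and Psme2, of the immunoproteasome and its activator, held none. Among genes for the loading of class I molecules, Tapbp, which encodes tapasin, averaged 645 ± 105.1 CPM in tumour areas and 194 ± 3.81 CPM in normal areas and rose by 1.73 ± 0.11 (adjusted p = 4.93e-07 in edgeR). Its relative Tapbpl rose by 1.57 ± 0.15, the chaperones Calr and Canx by 0.48 ± 0.06 and 0.48 ± 0.10, and Pdia3 by 0.20 ± 0.05, while the peptidase Erap1 did not pass (0.06 ± 0.06, adjusted p = 0.379 in edgeR).

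Of 22 tested interferon response genes outside the symbol rule 20 rose. Cxcl9, a chemokine for T cells, rose by 3.63 ± 0.35, Phf11b by 3.03 ± 0.23, Dhx58, the RNA sensor LGP2, by 2.97 ± 0.36, and Bst2, the virus tether tetherin, by 2.84 ± 0.28. Cmpk2 and Slfn5 fell by 0.43 and 0.40, and with library size alone stood at -0.14 and -0.10 without passing. Among sensors, Tmem173, which encodes STING, stood at 86.4 ± 27.5 CPM in tumour areas and 9.50 ± 0.623 CPM in normal areas (3.19 ± 0.24, adjusted p = 1.16e-06 in edgeR), while its kinase Tbk1 did not pass (0.10 ± 0.08, adjusted p = 0.301 in edgeR). Of 15 tested receptors and regulators of JAK-STAT signalling 10 rose and 3 fell, beside 39.3% and 35.3% of all tested genes. Il2rg, the common gamma chain, rose by 3.55 ± 0.25, the STAT target kinase Pim1 by 3.15 ± 0.25, the repressor Bcl6 by 2.73 ± 0.09 and the prolactin receptor Prlr by 1.42 ± 0.27. Lifr, the receptor of leukaemia inhibitory factor, fell by 0.81, Pias2, a SUMO ligase, by 0.71 and Il13ra1 by 0.38, the last at -0.09 and not passing with library size alone.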

How the data were processed

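The authors deposited raw counts of reads for each gene in 9 libraries, and a check found only whole numbers, with a different total in each column. Per the labels, RNA was selected for poly(A), made into TruSeq libraries and read as 50-base paired ends. Per the submitters' processing notes, STAR 2.3, HTSeq, edgeR and the build mm9 were used. Annotation, strand setting and filters were not given in the sources used here. Symbols matched 14026 of 14052 identifiers, and 26 did not match.

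Genes were kept by filterByExpr (minimum count 10, minimum total 15), scaled by TMM and tested with edgeR 4.0.16 in R 4.3.3 by the quasi-likelihood test, with tumour or normal as the sole factor. Benjamini-Hochberg adjusted p under 0.05 over all 7020 tested genes was a call. The standard error is the log2 fold change divided by the root of the F statistic. The steps were tested on simulated data in which far fewer genes changed than were called here and all areas were independent. That test therefore does not check the scaling or the calls at the share of changes seen here. Shares of 50-base stretches (the read length) come from GENCODE M21 transcripts, and promoters from RefSeq GRCm38.p6. No coordinates of the files' build are given. Alternatives used DESeq2 1.42.0 and limma 3.58.1. Tables and plots used Python 3.11.15, pandas 2.3.3 and matplotlib 3.10.9.

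Genes were named by role, namely up to 3 of the largest increases and 2 of the largest decreases with at least 1 CPM in the higher group, all that fell and those needed to show that they did not pass. Genes of the fixed lists were named up to 4 per list and direction. The remaining ones are named too, whatever their values, except that 2 tested genes are not reported individually here and stay in the counts over groups of genes. The genes, lists and tests were chosen with earlier results of these data known. All libraries and columns were used.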

Additional observations from a re-analysis of the deposited data

Results flagged for a closer look

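Within the 47 tested genes, 94 sets of areas (5 tumour or 4 normal) were searched for an area that stood apart by Dixon's 95% criterion, and 5 sets (5.32 per 100) held one, where chance flags about 1 in 20. Among tumour areas, Ifi35 was high in L4 at 5.42 CPM, with the other tumour areas at 3.26 to 3.48 CPM, and Socs7 was high in R4 at 2.76 CPM, with the others at 0.544 to 1.11 CPM. Among normal areas, H2-Aa was low in L2 at 23.0 CPM (others 26.3 to 26.8 CPM), Ifi30 was low in R2 at 64.5 CPM (others 70.3 to 71.3 CPM) and Xaf1 was high in L1 at 1.30 CPM (others 0.954 to 1.01 CPM). The differences between tumour and normal areas in these genes were larger than these gaps, except that in Ifi35 normal R1 at 3.15 CPM lay just below the lowest tumour area.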

How the results depend on the processing

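Over 18 alternatives (3 other scalings, 2 other filters, DESeq2, limma-voom, the area letter as a covariate, each area left out, and L4 and R5 left out), 42 of the 47 tested genes kept direction and call in each alternative that tested them. Of 841 values 824 kept both, 8 lost a call, 8 gained one and 1 turned, which was Stat5b at 0.15 with library size alone. The count of higher genes was 41 to 48. The count of lower genes, 2, was 1 with upper quartile factors, with library size alone, with no filter and with the area letter, and 1 to 2 with 1 area left out (1 without tumour R3 or R5 or normal L2 or R2). The gene lost was Stat5b each time, whose adjusted p over all alternatives ran from 0.0133 to 0.208. Lower genes of the fixed lists numbered 2 instead of 6 with library size alone, and 6 in every fit with 1 area left out. No paired analysis was possible, because the tumour and normal areas came from different mice. The area name R2 occurs in both groups but does not make a pair. Genes at 0 in every library (28.4% of the table) cannot be read as silent, and neither can genes near 0 such as B2m, H2-Ab1 and Irf7.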
